A study of Mus musculus with 6 samples.

Results

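The summed RPKM of the nuclear respiratory chain genes was highest in the 2 thymic miR-146a-sufficient tumors. It was lowest in 1 neck node tumor and 1 deficient tumor, whereas the mitochondrially encoded genes followed another order. Gene by gene, those 2 thymic tumors were the 2 highest in 38 of the 89 nuclear genes tested. That count was not made over all genes, so it describes these genes without a share to set beside it. No gene of the chain passed the adjusted threshold between the genotypes or between the tumor sites. The genes described are the protein-coding genes whose symbol starts with Nduf, Uqcr, Atp5, Cox4, Cox5, Cox6, Cox7, Cox8 or mt-, together with Sdha, Sdhb, Sdhc, Sdhd, Cyc1 and Cycs. The rule used names and biotype only, and it found 107 of the 38293 genes in the table, 94 nuclear and 13 mitochondrial. A further 25 symbols match the name pattern but have another biotype, 22 mitochondrial tRNA genes, 2 mitochondrial rRNA genes and 1 pseudogene. The tRNA and rRNA genes were left out of the counting by the authors and are listed at 0.

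RNA was sequenced from 6 tumors of Eμ-Myc mice (C57BL6), in which the Myc transgene is driven by the immunoglobulin heavy chain enhancer and gives B-cell tumors. The 4 miR-146a-sufficient tumors (miR-146a+/+) came from male mice. Sufficient tumors 1 and 2 were neck node tumors of mice aged 18 and 16 weeks, and sufficient tumors 3 and 4 were thymic tumors of mice aged 10 and 10 weeks. The 2 miR-146a-deficient tumors (miR-146a-/-) were thymic tumors of mice labelled female, deficient tumor 1 at 11 weeks and deficient tumor 2 at 10 weeks. All mice carry the transgene, the deficient mice were bred from miR-146a-deficient animals and lack it in all cells, and the tumors were dissociated into single cells without a sort, so other cell types of the site remain. Tumor site and age cannot be told apart among the sufficient tumors, nor can genotype and labelled sex.

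The respiratory chain passes electrons from NADH through complex I, or from succinate through complex II, to complex III, cytochrome c and complex IV. Complexes I, III and IV pump protons across the inner mitochondrial membrane, and ATP synthase uses the gradient to make ATP. Complex II is encoded in the nucleus alone, while the other complexes join nuclear subunits, made in the cytosol and imported, with a few core subunits transcribed and translated inside the mitochondrion. Myc is known to drive mitochondrial biogenesis in dividing B cells.

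The B-cell identity of the tumors was checked with Cd79a, a chain of the B-cell receptor complex, at 388 to 550 RPKM in the 6 tumors. Values are RPKM, which divide a gene's reads by its length and by the depth of the library. The microRNA gene Mir146 is listed at 0 in all tumors and checks no label. The Y-linked gene Ddx3y, at 24.6 RPKM in deficient tumor 2 and 0.130 in deficient tumor 1, goes against the female label of the library labelled deficient 2. Depth was estimated from low pseudogenes, whose values times length piled up on 2 levels that held 18.7% to 36.1% of them per tumor. Taking the mean of those levels as the worth of 1 read, sufficient tumor 2 was 2.73 times as deep as sufficient tumor 1. By that estimate 93 of 97 members tested rested on at least 100 reads in every tumor. The median counting error was 1.73% in the shallowest tumor of each gene. The median coefficient of variation over the 6 tumors was 22.0%. Such errors cover counting only.

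Transcripts from the mitochondrial genome dominated. The 13 mitochondrial members summed to 41867 and 78840 RPKM in the neck node sufficient tumors, 68282 and 62671 in the thymic sufficient tumors, and 40953 and 51801 in the deficient tumors. Only 8 of the 13 had values above 0, so the mitochondrial sums, shares and ratios given here rest on those 8. Both deficient tumors and sufficient tumor 1 were low, and the groups overlapped. The 94 nuclear members summed to 10989, 8994, 14184 and 12699 RPKM in sufficient tumors 1 to 4 and to 11968 and 9229 in the deficient tumors. In bulk tissue, fewer cells of a type and less RNA per cell cannot be told apart. The order of the tumors was different for the nuclear and the mitochondrial genes, and sufficient tumor 2 had the lowest nuclear sum and the highest mitochondrial sum. The mitochondrial share of the summed RPKM was 83.7% ± 4.40 (SD, n = 4) among sufficient tumors, and deficient ones had 81.1% ± 5.30 (SD, n = 2; exact two-sided permutation p = 0.533 over 15 splits, of which the smallest possible is 0.0667). The ratio of the mitochondrial to the nuclear sum ran from 3.42 in deficient tumor 1 to 8.77 in sufficient tumor 2.

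**Figure D1:**
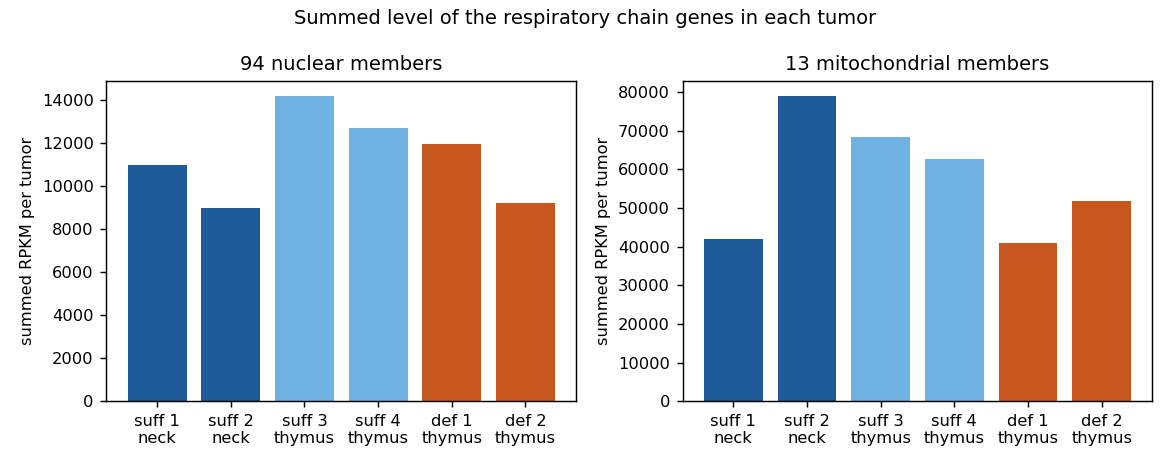
Bars give the summed RPKM of the 94 nuclear members (left) and the 13 mitochondrial members (right) in each tumor, with neck node sufficient tumors in dark blue, thymic sufficient in light blue and thymic deficient in orange. Sufficient tumor 2 has the lowest nuclear bar, 8994, and the highest mitochondrial bar, 78840. The mitochondrial bars rest on the 8 members with values above 0.

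Among the mitochondrial genes, 8 of 13 had values above 0. mt-Co1, the catalytic subunit of complex IV, was highest, at 16383, 30721, 22472 and 21891 RPKM in sufficient tumors 1 to 4 and 17793 and 22511 in the deficient tumors. mt-Cytb, the cytochrome b of complex III, measured 6685, 16433, 12956 and 9452 RPKM in the sufficient and 6839 and 6905 in the deficient tumors. mt-Nd1, a membrane subunit of complex I, measured 7249, 11175, 17104 and 14217 RPKM in the sufficient and 6378 and 10451 in the deficient tumors. In mt-Co1 and mt-Cytb sufficient tumor 2 stood highest, while in mt-Nd1 both thymic sufficient tumors did. The other complex I subunits with values were mt-Nd4 with a mean of 5213 RPKM over the 6 tumors, mt-Nd2, mt-Nd5, mt-Nd6 and mt-Nd3. mt-Nd6 is the only member read from the other strand, and the library kit does not mark strand, so reads of both strands can enter its value. mt-Nd3 was far below the rest at 407, 350, 1040 and 806 RPKM in the sufficient and 360 and 293 RPKM in the deficient tumors.

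**Figure D2:**
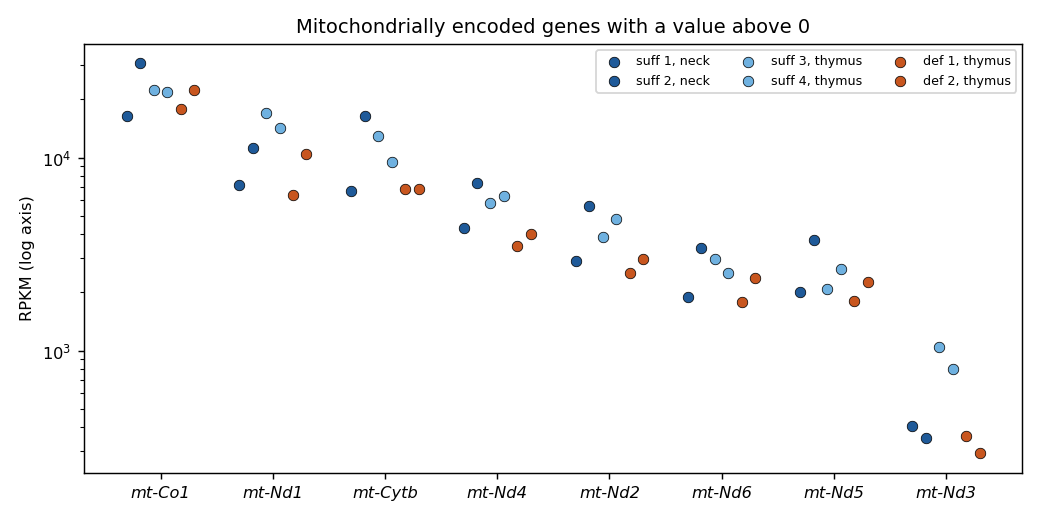
RPKM on a log axis of the 8 mitochondrially encoded genes with a value above 0, 1 point per tumor, colored by group and site as in the legend. mt-Co1 spans 16383 to 30721 RPKM and mt-Nd3 spans 293 to 1040.

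The other 5 mitochondrial members, mt-Co2, mt-Co3, mt-Atp6, mt-Atp8 and mt-Nd4l, are listed at 0 in every tumor. These encode 2 subunits of complex IV, both mitochondrial subunits of ATP synthase and 1 subunit of complex I. Since their neighbors on the same long transcripts reached up to 30721 RPKM, the entries are not read as absent transcripts. A block of nuclear copies on chromosome 1 of GRCm38, from 24611535 to 24616197, carries the sequence of 4 of them. In GENCODE M21, mt-Co2, mt-Co3, mt-Atp6 and mt-Nd4l shared 99.5%, 99.9%, 99.5% and 98.5% of their 100-base windows, the length of a read, with an annotated copy. Gm10222, the copy of mt-Nd4l, is listed at 0 in all 6 tumors too. For mt-Atp8 no window was shared with an annotated gene. By contrast mt-Nd1, mt-Nd5, mt-Nd6 and mt-Cytb shared 0 windows, mt-Co1 shared 30.8% and mt-Nd4 shared 60.8%. mt-Nd3 shared 97.6%. Whether reads with 2 places in the genome were dropped was not tested, and the levels of mt-Nd3, mt-Nd4 and mt-Co1 relative to the other genes are uncertain.

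The sequences show how close the copies are. The first 60 bases of mt-Nd3 (chrM:9459-9518, plus strand, GRCm38) and of its copy Gm28438 on chromosome 1 differ at the single base in capitals, which is the only mismatch over 345 aligned bases. The second pair is the start of the copied stretch of mt-Co1 (chrM:6381-6440) and Gm29216, where all 6 mismatches over 492 aligned bases fall within the stretch shown and stand in capitals.
mt-Nd3: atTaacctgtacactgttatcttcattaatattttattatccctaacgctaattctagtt
Gm28438: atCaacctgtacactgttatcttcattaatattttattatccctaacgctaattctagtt
mt-Co1: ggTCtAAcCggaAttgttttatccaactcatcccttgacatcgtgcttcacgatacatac
Gm29216: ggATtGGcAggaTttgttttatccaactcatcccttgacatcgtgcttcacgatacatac

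Nuclear members were expressed over a wide range of levels, from a 6-tumor mean of 0.597 RPKM for Cox6b2 to 705 RPKM for Ndufa4 among the 89 that passed the filter, with a median of 86.7. Levels are per length of the gene model, so a long model lowers the value. Ndufa4, now placed in complex IV although named for complex I, measured 594, 489, 1115 and 882 RPKM in sufficient tumors 1 to 4 and 713 and 439 RPKM in the deficient tumors. Next in ATP synthase was Atp5b, its catalytic beta subunit, with a mean of 483 RPKM, and the lowest was Atp5g1, one of 3 genes for the membrane ring subunit c, at 25.9 RPKM. Complex III was led by Uqcrc1, a core protein, at 212 RPKM, with Cyc1, cytochrome c1, between 144 and 217 RPKM. In complex II, Sdhd, a membrane anchor, had the highest mean at 192 RPKM, followed by the iron-sulfur subunit Sdhb at 143, the flavoprotein Sdha at 78.4 and the anchor Sdhc at 25.9. In complex I, the accessory subunit Ndufb11 reached 276 RPKM and the core subunit Ndufs8 138 RPKM, while Ndufb2 with its 5628-base model gave 5.90. Cycs, the mobile carrier cytochrome c, had a mean of 38.1 RPKM. Copies matter in the nucleus as well. Cox7c, a small subunit of complex IV, shared 16.2% of its windows with other genes, among them the pseudogene Gm12338. Gm12338 measured 718 to 1999 RPKM and Cox7c 66.3 to 157 RPKM, so the level of Cox7c is uncertain.

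The tissue-restricted isoforms of complex IV were low or at 0, with 1 exception that differed between tumors. Cox7b2 and Cox8c are listed at 0 in all 6 tumors, Cox4i2 had a value in 1 tumor only (0.0322 RPKM), and Cox8b and Ndufa4l2 did not exceed 0.191 RPKM. These 5 genes are the nuclear members that the filter removed. Cox7a1, the heart and muscle form of Cox7a2, measured 4.84 to 8.55 RPKM, against 174 to 487 for Cox7a2. Cox6b2, known from testis, measured 0.0732 to 1.02 RPKM against 374 to 537 for Cox6b1. Cox6a2, the heart and skeletal muscle form of Cox6a1, measured 2.55, 1.33, 2.25 and 24.2 RPKM in sufficient tumors 1 to 4 and 0.525 and 23.2 RPKM in the deficient tumors. It was thus high in 1 thymic tumor of each genotype and low in the other 4, by an estimated 393 and 549 reads against 18 to 53. The genotype difference was 0.25 with a standard error of 1.18 on the log2(RPKM + 1) scale (limma adjusted p = 0.974). Cox6a1 lay between 333 and 498 RPKM in all tumors. The sum of the 10 skeletal muscle markers was lowest in the 2 tumors with high Cox6a2. It was 5.26 and 7.13 RPKM there and 10.1 to 14.2 RPKM in the others, mostly from Tnni2 and Mylpf. Other markers of the list did not all follow, and Ckm had its highest value, 0.353 RPKM, in sufficient tumor 4. Myh1 and Myh2 were at 0. The 6 heart muscle markers summed to 0.900 and 0.775 RPKM in the tumors with high Cox6a2. In the other 4 they summed to 0.140 to 0.552 RPKM. The same 2 tumors were thus highest, at levels below 1 RPKM, while the order of the other 4 differed from that of Cox6a2. The part of heart muscle RNA in the Cox6a2 values was not tested.

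**Figure D3:**
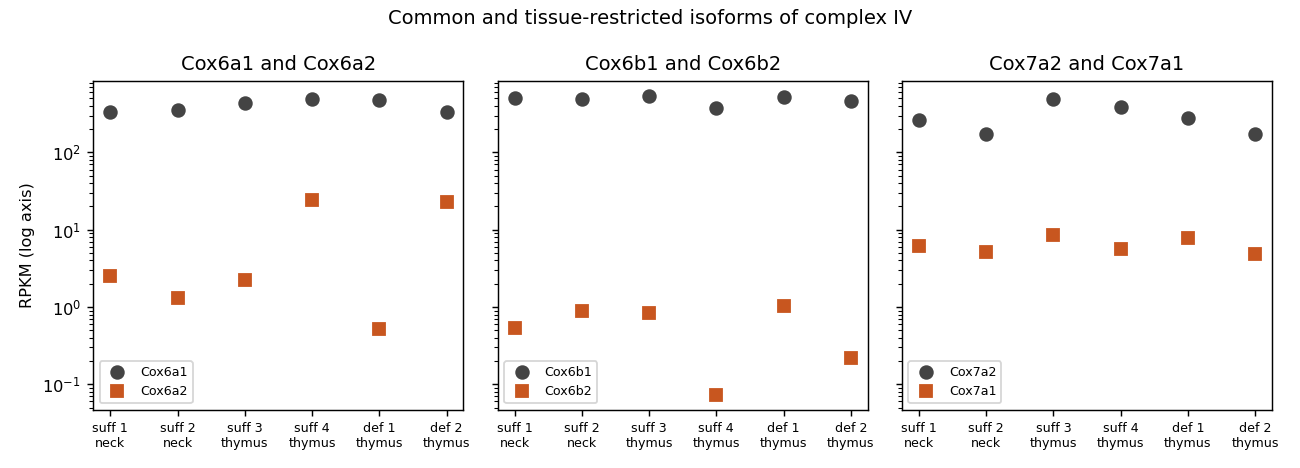
RPKM on a log axis of 3 pairs of a common (grey circles) and a tissue-restricted (orange squares) isoform of complex IV in each tumor. Cox6a2 stands at 24.2 and 23.2 RPKM in sufficient tumor 4 and deficient tumor 2 and at or below 2.55 RPKM elsewhere.

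The comparison of genotypes asked whether loss of miR-146a went with a different level of these genes. No member passed. Of 97 members tested, 89 nuclear and 8 mitochondrial, 0 had an adjusted p under 0.05 in limma and 0 had an unadjusted p under 0.05. Over all 12751 genes tested, 0.0627% passed the adjusted and 3.62% the unadjusted threshold. The sufficient group mixes both sites, and with tumor site as a covariate 11 members, 10 nuclear and 1 mitochondrial, had an unadjusted limma p under 0.05, all lower in the deficient tumors, against 2.19% of all genes. None of them passed the adjusted threshold. The median log2 fold change, deficient against sufficient, was -0.09 over the nuclear members, with 27 above and 62 below 0, beside 0.13 over all genes. After median-ratio scaling, which brings all genes to a median near 0, the nuclear median was -0.26 with 12 above and 77 below 0. Without deficient tumor 2 the nuclear median was 0.07. All 15 subunits of ATP synthase had a value below 0, with a median of -0.15. Complex I showed the same in 24 of 29 accessory and 5 of 7 core subunits, with medians of -0.13 and -0.12. Over both sites these counts rested on deficient tumor 2. Without it 9 of 15 in ATP synthase, 11 of 29 accessory and 3 of 7 core subunits had a value below 0. With tumor site as a covariate these were 15 of 15, 26 of 29 and 5 of 7, with medians of -0.32, -0.33 and -0.21. Common subunits of complex IV were below 0 in 8 of 12 in both fits, with medians of -0.14 and -0.46. Without deficient tumor 2 it was 4 of 12. Over both sites complexes II and III had medians of 0.07 and 0.03, and the 6 assembly factors of complex I had a median of 0.14. Among the members furthest from 0 in their roles were Atp5h of the ATP synthase stalk (-0.41), Ndufs8 (-0.44) of the complex I core, the accessory Ndufa13 (-0.33) and the assembly factors Ndufaf3 (-0.40) and Ndufaf4 (0.30).

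Markers of other cell types were set beside the genotype comparison, and none of them passed its adjusted threshold. Of the macrophage markers 8 of 9 tested had a value above 0 and 6 an unadjusted limma p under 0.05, with sums of 130 to 302 RPKM in the sufficient and 224 and 272 RPKM in the deficient tumors. All 10 T and NK cell markers tested and all 8 neutrophil markers had values below 0, with T and NK sums of 24.6 to 75.7 RPKM against 20.7 and 23.1 RPKM. The neutrophil sums were high in the neck node sufficient tumors alone, at 1604 and 1638 RPKM. Thymic sufficient tumors, at 233 and 202 RPKM, overlapped the deficient tumors, at 107 and 276 RPKM. The 5 erythroid markers tested also had values below 0, with a median of -1.29. The erythroid sums were 39.7, 319, 242 and 57.7 RPKM in sufficient tumors 1 to 4 and 22.3 and 73.1 RPKM in the deficient tumors, highest in sufficient tumors 2 and 3 and lowest in deficient tumor 1, as were the mitochondrial sums. Their part in the members' values was not tested.

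Of the mitochondrial members all 8 had negative fold changes, with a median of -0.57, the largest for mt-Nd3 (-0.85, standard error 0.45) and the smallest for mt-Co1 (-0.16, standard error 0.52). Their adjusted p in limma was 0.893 for mt-Nd3 and 0.958 for mt-Co1. Without deficient tumor 1 the value of mt-Co1 was 0.013, and with quantile normalization it was -3.57. These genes share 1 precursor transcript per strand, so they are not 8 separate observations. Only mt-Nd4 was lower in both deficient tumors, at 3479 and 4029 RPKM, than in all sufficient tumors, at 4331, 7365, 5786 and 6289 RPKM. Over all genes 2.09% lay below in this way. The nearest values, 4029 and 4331 RPKM, are close, and the log2 fold change was -0.64 with a standard error of 0.38 (limma adjusted p = 0.893).

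In the other direction, 4 nuclear members (4.49%) were above all sufficient tumors in both deficient tumors, against 9.15% of all genes. After median-ratio scaling 0 were so, against 4.87%. Cox5a, which binds the catalytic core of complex IV, measured 231, 223, 215 and 234 RPKM in the sufficient and 312 and 242 RPKM in the deficient ones, a log2 difference of 0.28 with a standard error of 0.21. Uqcr10, a small subunit of complex III, measured 168, 162, 168 and 163 RPKM in the sufficient and 178 and 180 RPKM in the deficient tumors, the narrowest spread of any member tested (coefficient of variation 4.37%). Ndufs3, a core subunit of complex I, measured 30.5, 30.6, 33.7 and 30.8 RPKM in the sufficient and 36.0 and 34.2 RPKM in the deficient tumors. Ndufab1, the acyl carrier protein bound to complex I, measured 10.7, 9.56, 10.2 and 7.13 RPKM in the sufficient and 12.0 and 11.5 RPKM in the deficient tumors. The differences are small, and after median-ratio scaling those of Uqcr10 and Ndufs3 turned to -0.062 and -0.014 on the log2 scale. Uqcrq, a small subunit that binds ubiquinone in complex III, had the largest positive fold change, 0.58 with a standard error of 0.35. Its neck node values were 43.9 and 42.3 RPKM, its thymic sufficient values 102 and 68.7 RPKM, and its deficient values 96.5 and 84.3 RPKM, so the deficient values lay among the thymic ones.

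Between the 2 tumor sites, compared among the sufficient tumors alone, most nuclear members were lower in the neck node. Here 0 of 97 members passed the adjusted threshold, as did 0.155% of all 12255 genes tested. An unadjusted p under 0.05 with the neck node lower was found for 17 members, 16 nuclear and mt-Nd3, and for 2.65% of all genes. No member had such a p with the neck node higher, against 639 of all 12255 genes tested. The nuclear median given below was smaller in size without sufficient tumor 2. Values were also scaled to the nuclear sum, here the sum of all genes except mt- genes and Xist. Then 9 nuclear members and mt-Nd3 had such a p with the neck node lower, against 190 of all 12281 genes tested. Both neck node tumors lay below both thymic tumors in 50 members (51.5%), against 12.6% of all genes, and above them in 2 members (2.06%), against 27.9% of all genes. With 2 tumors against 2, the smallest two-sided permutation p is 0.333. The nuclear median was -0.40 on the log2 scale, neck node against thymus, with 16 above and 73 below 0, beside 0.10 for all genes. It was -0.54 with 7 above and 82 below 0 after median-ratio scaling, -0.28 with 28 above and 61 below 0 after scaling to the nuclear sum, and -0.20 without sufficient tumor 2. The mitochondrial median was -0.10, with 2 above and 6 below 0, and turned positive with quantile normalization, with scaling to the nuclear sum and without sufficient tumor 1.

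The lower values in the neck node ran through several complexes. Neck node values were below both thymic ones in 20 of 29 accessory and 4 of 7 core subunits of complex I, 8 of 12 common subunits of complex IV, 9 of 15 subunits of ATP synthase and 3 of 9 of complex III. The count was 1 of 4 in complex II, which was Sdhb, and 1 of 6 among the assembly factors. Ndufb4, an accessory membrane subunit of complex I, had 39.3 and 32.4 RPKM at the neck and 73.7 and 69.8 RPKM in thymic tumors (log2 fold change -0.99, standard error 0.23, limma adjusted p = 0.457). Cox7a2 measured 262 and 175 RPKM against 487 and 390 RPKM (-1.02, standard error 0.31). Cox6c, another small subunit of complex IV, measured 61.8 and 58.3 RPKM against 132 and 89.6 RPKM (-0.85, standard error 0.27). In ATP synthase, Atp5j2 measured 158 and 103 RPKM against 244 and 241 RPKM (-0.92, standard error 0.29), and Atp5k measured 137 and 113 RPKM against 246 and 203 RPKM (-0.84, standard error 0.26). Both belong to the membrane part of the enzyme. Uqcrh, the hinge protein of complex III, measured 184 and 120 RPKM against 273 and 276 RPKM (-0.88, standard error 0.29). Sdhb measured 130 and 95.2 RPKM against 179 and 230 RPKM (-0.86, standard error 0.28), while its partner Sdha had 95.3 and 68.5 RPKM against 76.2 and 59.2 RPKM, with overlapping groups.

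Among further members with the largest differences of their roles were Ndufb8 (-0.78), Ndufaf6 (-0.54) and Atp5l-ps1 (-0.54), a gene listed as protein-coding at 1.05 to 2.88 RPKM. The highest and lowest assembly factors, Ndufaf2 and Ndufaf5, had means of 20.4 and 7.96 RPKM, and the subunit s relatives Atp5sl and Atp5s had 21.3 and 6.17 RPKM.

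Other members did not follow. Ndufs1, the largest subunit of complex I, was above in the neck node by a small margin at 43.9 and 42.9 RPKM against 42.7 and 41.5 RPKM. Ndufaf3, an assembly factor, measured 11.9 and 9.96 RPKM against 8.49 and 7.08 RPKM (0.44, standard error 0.26). Of the mitochondrial genes, mt-Nd1 and mt-Nd3 alone lay below in both neck node tumors, and mt-Nd3 had the largest difference of those 17 (-1.28, standard error 0.30, limma adjusted p = 0.431). mt-Co1 differed by 0.02 with a standard error of 0.64, since the 2 neck node tumors were its lowest and its highest value.

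**Figure D4:**
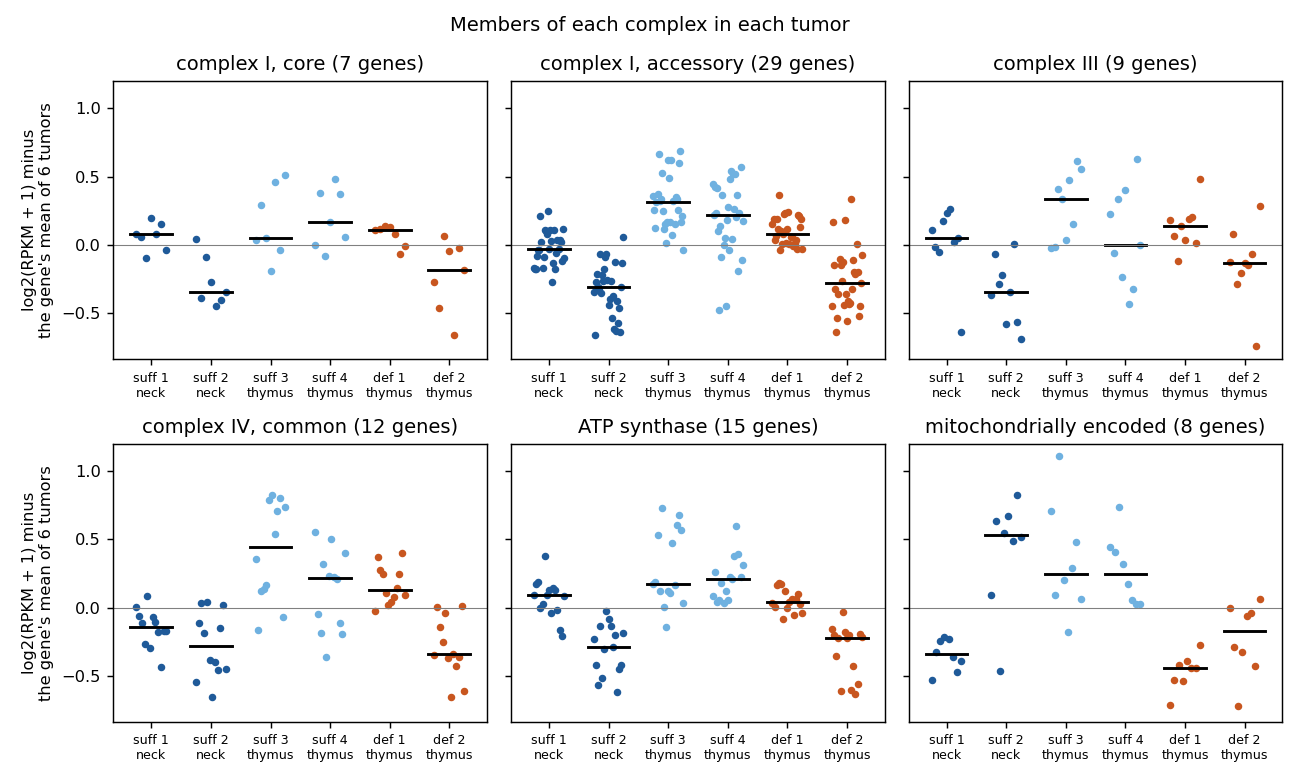
Points give log2(RPKM + 1) of each member minus its mean over the 6 tumors, by complex and tumor, and black bars mark the median. In complex I accessory genes the medians are 0.31 and 0.22 in sufficient tumors 3 and 4 and -0.31 and -0.28 in sufficient tumor 2 and deficient tumor 2, while the mitochondrial genes stand at 0.53 in sufficient tumor 2.

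The deficient tumors, which are thymic, took different places in these genes. Of the 50 members lower in the neck node, deficient tumor 2 was at or below the higher neck node value in 39 (78%), between the sites in 7 and at or above the lower thymic sufficient value in 4. Deficient tumor 1 was so in 14 (28%), 27 and 9. These members were chosen by the values of the thymic sufficient tumors, and over all 1541 genes chosen in the same way 54.8% were at or below the neck node value in deficient tumor 2 and 33.0% in deficient tumor 1. Of the 89 nuclear members tested, the highest value was in sufficient tumor 3 for 35 and in sufficient tumor 4 for 28, and the lowest was in sufficient tumor 2 for 35 and in deficient tumor 2 for 33. These counts of highest and lowest values were not made over all genes. When the genotypes were compared in thymic tumors alone, both deficient tumors lay below both sufficient tumors in 49 of 97 members (50.5%), against 10.5% of all genes, and above in 5 (5.15%), against 32.5% of all genes. The nuclear median was then -0.27 and the mitochondrial median -0.67 on the log2 scale, and 0 members passed the adjusted threshold. An unadjusted limma p under 0.05 was found for 8 members, 7 nuclear and mt-Nd3, all lower in the deficient tumors, against 2.12% of all genes. This comparison and the one between sites share the same 2 thymic sufficient tumors.

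Several other measures moved with the site. Neutrophil markers were higher in the neck node, with 8 genes summing to 1604 and 1638 RPKM there, 233 and 202 RPKM in the thymic sufficient and 107 and 276 RPKM in the deficient tumors. Salivary gland markers summed to 72.1 and 68.6 RPKM in the neck node and to at most 1.28 RPKM elsewhere, 1 of 7 being at 0 throughout. The 8 B-cell markers summed to 1349 and 2045 RPKM in neck node tumors, against 1694 and 1712 RPKM in thymic sufficient tumors, so the sites overlapped. The part of these markers in the site difference was not tested.

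Gene length moved with it as well. Short gene models were lower in the neck node among all genes, and the members are short, with a median exon length of 1587 bases against 3890 for the other genes tested. Among models of up to 1000 bases, neck node values lay below the thymic ones in 56.5% of 23 members and in 42.3% of 267 other genes with a mean of at least 20 RPKM. From 1000 to 2000 bases the shares were 53.8% of 39 members and 29.9% of 518 others, from 2000 to 4000 bases 50% of 24 members and 17.1% of 1095 others, and above 4000 bases 36.4% of 11 members and 8.44% of 1220 others. In each length class the share was larger among members. The medians in those classes were -0.54, -0.41, -0.24 and -0.31 for members and -0.29, -0.13, 0.03 and 0.21 for the others. The part of length in the site difference was not tested further.

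**Figure D5:**
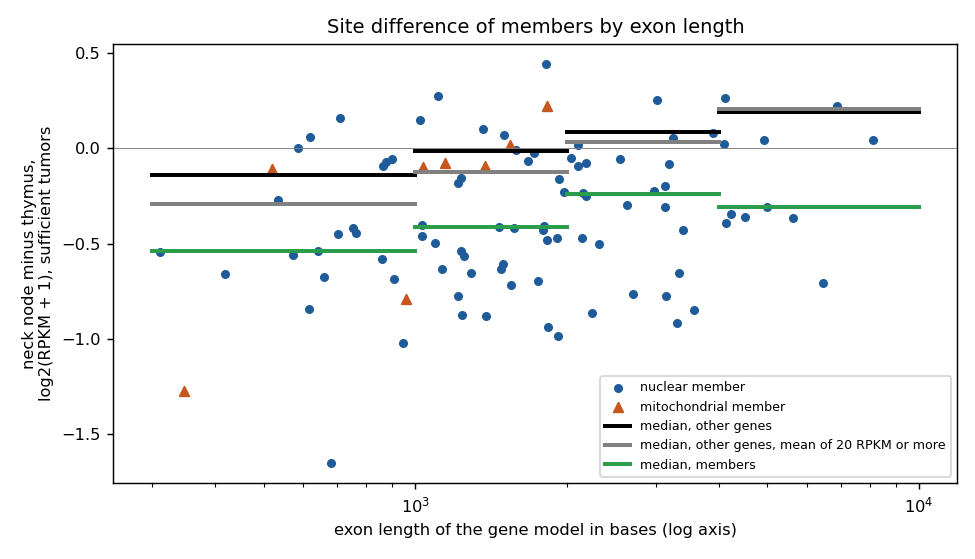
Neck node minus thymus on the log2(RPKM + 1) scale in the 4 sufficient tumors, by exon length in bases on a log axis, for nuclear (circles) and mitochondrial (triangles) members. Horizontal lines are medians per length class, green for members, black for all other genes and grey for other genes with a mean of 20 RPKM or more. The green lines lie at -0.54 to -0.24, below the black and grey lines of the same class.

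Other genes of the pathway were set beside the members. The 77 mitochondrial ribosomal proteins, which translate the mitochondrial transcripts, had a median of -0.21 between sites, with 21 above and 56 below 0, and of -0.01 between genotypes. None of them passed the adjusted threshold. Of the 77, 8 had an unadjusted limma p under 0.05 with the neck node lower, against 2.65% of all genes. With the neck node higher it was 1, against 639 of all 12255 genes tested. The 16 genes of the citric acid cycle and pyruvate dehydrogenase had medians of -0.04 between sites and 0.01 between genotypes. The 21 genes for transcription and upkeep of mitochondrial DNA had medians of 0.12 and 0.06, and 28 further assembly factors of the complexes had medians of 0.01 and 0.16. Tfam, which packages mitochondrial DNA and starts its transcription, stayed between 25.2 and 27.2 RPKM in all 6 tumors. Polrmt, the mitochondrial RNA polymerase, measured 10.4, 11.6, 5.82 and 8.85 RPKM in the sufficient and 11.0 and 13.7 RPKM in the deficient tumors. Among regulators of the nuclear genes, Nrf1 lay between 6.14 and 8.13 RPKM and Gabpa between 16.3 and 23.2 RPKM. The coactivator Ppargc1a did not exceed 0.0658 RPKM, and its relative Pprc1 measured 20.6, 21.4, 10.1 and 17.0 RPKM in the sufficient and 19.1 and 27.9 RPKM in the deficient tumors. Both Pprc1 and Polrmt were lowest in sufficient tumor 3, in which the summed nuclear members were highest.

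The promoters of the nuclear members were searched for 4 known motifs on both strands. A promoter sequence (RefSeq, GRCm38.p6, 250 bases before to 50 after a gene's start) was matched for 74 of 94 nuclear members. The NRF1 letters GCGCATGC stood in 13 (17.6%) of them, against 3.05% of the 27025 genes with a promoter. The YY1 letters AAGATGGCG stood in 8 (10.8%) against 1.64%, the ETS letters CCGGAAGT in 5 (6.76%) against 4.31%, and the Myc E-box CACGTG in 6 (8.11%) against 8.09%. The NRF1 letters and their reverse overlap where GCGCATGCGC occurs. A match is a description of letters and no evidence of binding. The stretches printed come from members with an unadjusted limma p under 0.05 between sites and from Cycs, the mobile carrier, with the motif in capitals and read along the gene's strand. The NRF1 letters are shown for Atp5k (chr5:108434418-108434473, minus strand), Sdhb (chr4:140961193-140961248, plus strand) and Cycs (chr6:50566598-50566653, minus strand), the YY1 letters for Atp5j2 (chr5:145191492-145191542, minus strand) and Ndufs4 (chr13:114388045-114388083, minus strand), and the ETS letters for Uqcrh (chr4:116075050-116075105, minus strand).
Atp5k: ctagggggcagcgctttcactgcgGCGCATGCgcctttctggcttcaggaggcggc
Sdhb: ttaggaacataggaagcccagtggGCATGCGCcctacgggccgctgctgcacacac
Cycs: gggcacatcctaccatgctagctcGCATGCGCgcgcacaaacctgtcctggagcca
Atp5j2: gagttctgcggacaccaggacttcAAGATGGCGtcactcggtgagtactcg
Ndufs4: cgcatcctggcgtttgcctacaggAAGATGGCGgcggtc
Uqcrh: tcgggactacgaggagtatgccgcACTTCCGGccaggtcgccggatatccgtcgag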

How the data were processed

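RNA from 6 tumors was sequenced by the authors as 100-base single-end reads of poly(A) libraries made with a kit that does not mark strand, with 2 technical replicates per tumor. Per the labels and the methods, STAR 2.3.0 aligned the reads to the mouse assembly GRCm38 (mm10), and HTSeq 0.5.4p3 counted them per Ensembl gene, leaving out rRNA genes and mitochondrial tRNA genes. The submitters' processing notes also name DESeq 1.12.1. The deposited file holds RPKM values made by the authors, 1 per gene and tumor. How counts became RPKM and how the technical replicates were joined are not given in the sources used here. No counts were used, so no count model was run.

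Genes that reached 0.5 RPKM in 2 or more of the tumors compared were tested as log2(RPKM + 1) with limma 3.58.1 in R 4.3.3, with trend, and adjusted by Benjamini-Hochberg over all genes tested. Fold changes on this scale understate those of low genes. Genotype was compared over all 6 tumors, and tumor site over the 4 sufficient tumors. Single values were compared by exact permutation. The labels give 1 tumor per sample and do not name the mice, so a p-value measures the spread between these tumors. Only the limma fit between genotypes was checked on simulated data, with known changes. Changes as small as those of the members between genotypes were not simulated, nor were the other steps.

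Depth was read from the values of low pseudogenes times exon length less 99 bases, with exon lengths and windows from GENCODE M21, newer than the authors' annotation. Named genes are the mitochondrial members, in each role those with the highest and lowest mean and the 2 largest absolute fold changes of each comparison, members past a threshold, the restricted isoforms of complex IV with their partners, members removed as low, Sdha to Sdhd, Cyc1 and Cycs. Members whose groups did not overlap, members chosen as examples between sites, regulators and Gm12338 were named after their values were seen. Some genes that the rule names are not reported here. The members and lists were chosen with earlier results of these data known. Alternatives changed the filter, pseudocount, scaling, variance prior and tumors used, a replicate block, and tumor site as a covariate. Scaling to the nuclear sum divided values by the sum of all genes except mt- genes and Xist, not by the sum of the members. Counts of members whose groups do not overlap under other scalings and tumors, the length classes, and the place of the deficient tumors over all genes were added after seeing the data.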

Additional observations from a re-analysis of the deposited data

Results flagged for a closer look

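In 6 of 100 measures over the 4 sufficient tumors, 1 tumor stood far from the other 3, judged by Dixon's 95% critical value for the gap over the range. Chance gives about 1 in 20, so the number is near what chance gives. Cox6a2 was at 24.2 RPKM in sufficient tumor 4 (gap 0.946 of the range). Atp5sl, named for its likeness to subunit s of ATP synthase, was at 14.9 RPKM in sufficient tumor 4 (0.910). The complex I assembly factor Ndufaf5 was at 4.06 RPKM (0.907) and Atp5b at 356 RPKM (0.844) in sufficient tumor 2. Ndufs3 was at 33.7 RPKM (0.894) and Ndufa6 at 267 RPKM (0.861) in sufficient tumor 3.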

How the results depend on the processing

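The number of members past the adjusted threshold was 0 in both comparisons under every alternative run. The nuclear genotype median turned from -0.09 to 0.066 with the replicate block and ranged from -0.25 to 0.069 with 1 tumor left out, the positive value being that without deficient tumor 2. The block pairs the tumors numbered 1 and 2, whose differences correlated with r = 0.149 over 12751 genes. They share only a number, and the block fit uses the neck node and deficient tumors only. The mitochondrial genotype median stayed negative in all alternatives and ranged from -0.78 to -0.33 with 1 tumor left out. The nuclear site median stayed negative in all and ranged from -0.53 to -0.20 likewise. The mitochondrial site median changed sign with quantile normalization (0.10), with scaling to the nuclear sum (0.033) and without sufficient tumor 1 (0.35), and was -0.55 without sufficient tumor 2. The cause was not tested.

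Members with both deficient tumors above numbered 0 of 97 with median-ratio scaling and 2 (2.06%) with quantile normalization, against 4.87% and 5.11% of all genes. Among the 72 members with under 5% of windows shared they numbered 2 (2.78%), against 9.15%. Those with both below numbered 4 (4.12%) with either scaling, against 4.37% and 4.29% of all genes, and 0 of the 72, against 2.09%. They numbered 3 (3.09%) with scaling to the nuclear sum, against 1.69%, and 49 (50.5%) in thymic tumors only, against 10.5%. With 1 tumor left out, which makes such counts easier to reach, they ranged from 4 to 17 above and 1 to 35 below. The 17 above (17.5%, against 16.5% of all genes) were found without deficient tumor 2. The 35 below (36.1%, against 13.9%) were found without deficient tumor 1. Neck node above thymus numbered 0 with median-ratio scaling, against 20% of all genes, and 11 (11.3%) with scaling to the nuclear sum, against 36%. With 1 tumor left out it numbered 7 to 14 (7.22% to 14.4%), against 36.4% to 56.5% of all genes. Neck node below thymus numbered 39 to 56 (40.2% to 57.7%) under other scalings, against 8.09% to 19.8% of all genes. Of the 72 members it numbered 35 (48.6%), against 12.6%. With 1 tumor left out it numbered 57 to 71 (58.8% to 73.2%), against 20.8% to 36.1%. The ratio of mitochondrial to nuclear RPKM was 5.58 from sums and 61.6 from medians in the sufficient tumors, and 4.52 and 40.8 in the deficient tumors. Among single genes the genotype difference of mt-Co1 turned to 0.013 without deficient tumor 1 and was -3.57 with quantile normalization, which gives it the top value at rank 1 in the sufficient and a lower one at rank 2 in the deficient tumors, and with median-ratio scaling Ndufs3 turned to -0.014 and Uqcr10 to -0.062. Scaling, 2 deficient tumors and an estimated depth limit all values.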
